A study of Trichoderma reesei QM6a with 6 samples.

Results

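The genes described here were abundant in Trichoderma reesei QM6a and in its ace1 deletion strain and had similar levels in both. They are the genes with a mean of at least 3000 normalized counts in each strain (reads per gene divided by 1 size factor per library) and a ratio of the means, Δace1 over QM6a, between 0.67 and 1.5. The rule left out 6 identifiers by name, of which acs1 and 1 other met the values. It gave 34 of 9113 genes. The genes were chosen by the strain means of the normalized counts, so their levels and ratios are given as a description, and no test of the strain difference is used to support anything.

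T. reesei is a filamentous ascomycete used in industry to produce enzymes that break down plant cell walls. The zinc finger factor Ace1 represses genes for such enzymes. RNA came from 2 groups of 3 libraries, QM6a as wild type and Δace1 in the QM6a background. Both strains grew in shake flasks at 28 °C and 250 rpm for 24 h in MA medium with 1% D-glucose, and the washed mycelium then spent 3 h in MA medium with 1% D-mannitol. Poly(A) RNA was sequenced in stranded libraries. How many clones the deletion strain rests on and whether the replicates were separate cultures is not given in the sources used here, so the spread between replicates may be technical.

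Genes of steady high transcript level are often called housekeeping genes. The term is used for functions that a growing hypha needs on any carbon source, such as its cytoskeleton and its basic metabolism. Whether the genes described here are of this kind was not tested, since both strains were sampled on D-mannitol only. In RNA sequencing a gene is level only relative to a scale, because each library gives shares of a total and not amounts per cell. Fewer cells and less RNA per cell cannot be told apart in such bulk samples.

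The libraries held 5482552 to 6938203 estimated counts. A member had between 2548 and 68769 counts in a library, for which counting error alone is 1.98% and 0.381%. Counts of the deleted gene ace1 were 6, 7 and 14 for Δace1 against 8432, 7765 and 8001 for QM6a, as the labels say. Replicate 3 of Δace1 and replicate 1 of QM6a stood apart from the other two libraries of their strain. The chi-square per degree of freedom between their counts and those of the other replicates was 21.3 and 28.5 for the former and 10.3 and 12.5 for the latter, against 4.19 and 2.96 between the other two libraries of each strain.

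Few genes were abundant in both strains, and fewer of them had a similar level. There were 387 genes at 3000 or more normalized counts in QM6a and 204 in Δace1, and 123 in both. Of these 123 genes, 76 had a ratio below 0.67 and 11 a ratio above 1.5. Among 7769 genes with enough counts to be tested, 39.2% had a ratio within 0.67 to 1.5. That share was 43.7% of 3577 genes with a mean over both strains of 300 to 3000 normalized counts, and 12.6% of 317 genes with a mean of 3000 or more. Unlike the 123 genes, these 317 include genes below 3000 in QM6a or in Δace1, which favours ratios far from 1. The counts of 387, 204, 123, 76 and 11 genes hold for the authors' scaling and are not given on other scales. The median ratio over all tested genes was 1.01 with that scaling and 1.45 with scaling by library totals.

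**Figure D1:**
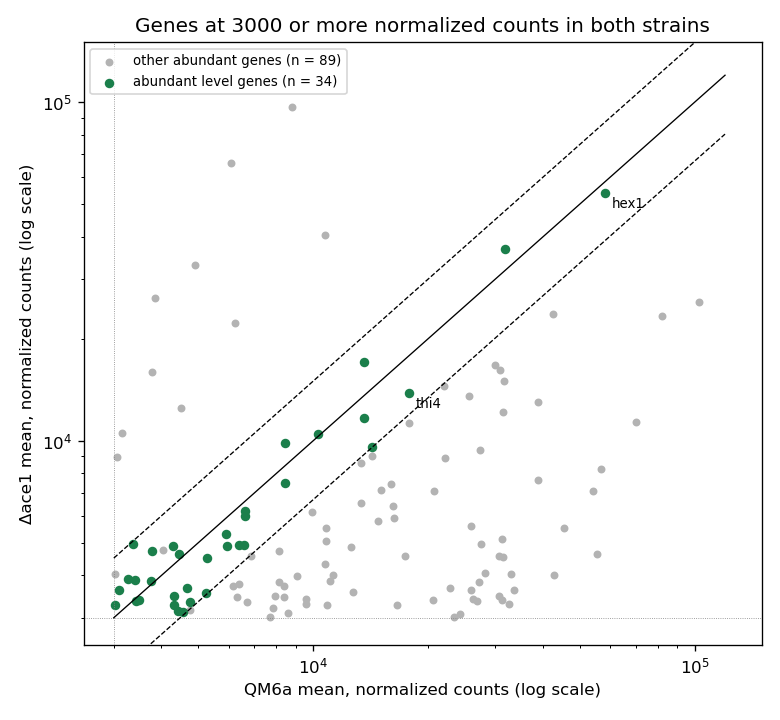
Mean normalized counts in QM6a (x axis, log scale) and in Δace1 (y axis, log scale) of the 123 genes at 3000 or more in both strains. The solid line marks equal means and the dashed lines ratios of 0.67 and 1.5; the 34 genes lie between the dashed lines, and most other abundant genes lie below them.

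The 34 genes filled the lower part of the window more than the upper. Their ratios ran from 0.6702 to 1.47 with a median of 0.917, and 21 were below 1 and 13 above. Ratios between 0.9 and 1.1 were found for 9 genes. At the lower bound the genes formed a continuum. TRIREDRAFT_47221, at a ratio of 0.6702, TRIREDRAFT_3007, at 0.679, and TRIREDRAFT_123773, at 0.683, were just inside. TRIREDRAFT_73862, at a ratio of 0.668, TRIREDRAFT_73967, at 0.662, and the histone gene hh3, at 0.657, were just outside. The upper bound lay in a gap. The highest ratios inside were 1.24 for TRIREDRAFT_49970, 1.26 for TRIREDRAFT_121977 and 1.47 for TRIREDRAFT_120044. The nearest genes outside were TRIREDRAFT_45624, at a ratio of 2.77, TRIREDRAFT_119813, at 2.93, and TRIREDRAFT_123244, at 3.34. At the level bound TRIREDRAFT_51492 was inside with 3027 normalized counts in QM6a, and TRIREDRAFT_49589 was outside with 2990.0.

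In normalized counts the 3 Δace1 libraries lay wholly above or wholly below the 3 QM6a libraries for 25 of the 34 genes, 9 higher and 16 lower in Δace1. Over all tested genes the libraries did not overlap for 82.3%, higher in Δace1 for 41.4% and lower for 40.9%. In edgeR's quasi-likelihood test with TMM scaling (trimmed mean of M values, 1 factor per library) the adjusted p was under 0.05 for 22 of the 34, of which 9 were higher in Δace1 and 13 lower. Over all tested genes the same test called 80.8%, with 41.2% higher and 39.5% lower. DESeq2 called 26 of the 34 and 68.5% of all genes with an adjusted p. The rule used this contrast, so nothing is read from these counts.

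The reference table gives a symbol for 8 of the 34 genes, and the other 26 are known here by locus tag only. The most abundant was hex1, which encodes the main protein of Woronin bodies, the organelles of filamentous ascomycetes that plug septal pores after wounding. Its normalized counts were 54647, 53397 and 53566 for Δace1 and 74302, 49861 and 50225 for QM6a. The Δace1 values fell within the QM6a range, and replicate 1 of QM6a was high, at 1.48 times the mean of the other two. The ratio of the means was 0.927, and it was 1.08 without QM6a replicate 1. The gene ranked 4 of 9113 in each strain by mean normalized counts. It held 1.05 ± 0.0201% of all estimated counts in Δace1 and 0.787 ± 0.169% in QM6a (SD, n = 3 each).

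The genes ftt1 and ftt2 encode the 14-3-3 proteins of T. reesei, adaptors that bind phosphorylated client proteins. In normalized counts ftt1 had 4955, 4891 and 4924 in Δace1 and 6305, 6193 and 6633 in QM6a. The Δace1 libraries agreed closely, with a coefficient of variation (SD over mean) of 0.643%, and all lay below the QM6a libraries. In the same unit ftt2 had 3844, 3700.1 and 3500.2 in Δace1 and 4803, 4581 and 4599 in QM6a, again without overlap. The ratios were 0.772 for ftt1 and 0.790 for ftt2, and the log2 changes with TMM were -0.35 (standard error 0.067) and -0.32 (0.066). Per length, in TPM (kallisto's abundance per effective length, with the same total in each library), ftt1 was above ftt2 in each of the 6 libraries, by 1.33 to 1.49 times. Their estimated counts were not whole in 5 of the 6 libraries while their sum was, so the counting program divided some reads between them. How many reads were divided is not known from these values, so the split between ftt1 and ftt2 is uncertain.

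The gene thi4 encodes the enzyme that makes the thiazole part of thiamine, and its normalized counts were among the more variable. They were 15790.1, 13661 and 11908 in Δace1 and 18878, 17432 and 17036 in QM6a. The groups did not overlap, although the coefficient of variation was 14.1% in Δace1 and 5.45% in QM6a. The ratio was 0.775.

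The genes pyc1 and ugp1 belong to sugar metabolism. The gene pyc1 encodes pyruvate carboxylase, which makes oxaloacetate from pyruvate. Its normalized counts were 6119, 6128 and 5775 in Δace1 and 6447, 6646 and 6779 in QM6a, a ratio of 0.907 with no overlap. The gene ugp1 encodes the enzyme that makes UDP-glucose, the donor for glycogen and cell wall glucan. Its normalized counts were 3434, 3128 and 3253 in Δace1 and 4599, 4239 and 4129 in QM6a, a ratio of 0.757 with no overlap. The log2 change with TMM was -0.38 (standard error 0.068) for ugp1 and -0.12 (0.069) for pyc1.

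The remaining named genes are inda1, for an amino acid permease, and hhp1, whose namesake in Schizosaccharomyces pombe is a casein kinase 1. The normalized counts of inda1 were 5486, 5221 and 5251 in Δace1 and 5861, 6068 and 5805 in QM6a, close but without overlap, and the ratio was 0.8999. Those of hhp1 were 3202, 3526 and 3710 in Δace1 and 4398, 4305 and 4248 in QM6a, a ratio of 0.806. All 8 genes with a symbol thus had a ratio below 1.

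**Figure D2:**
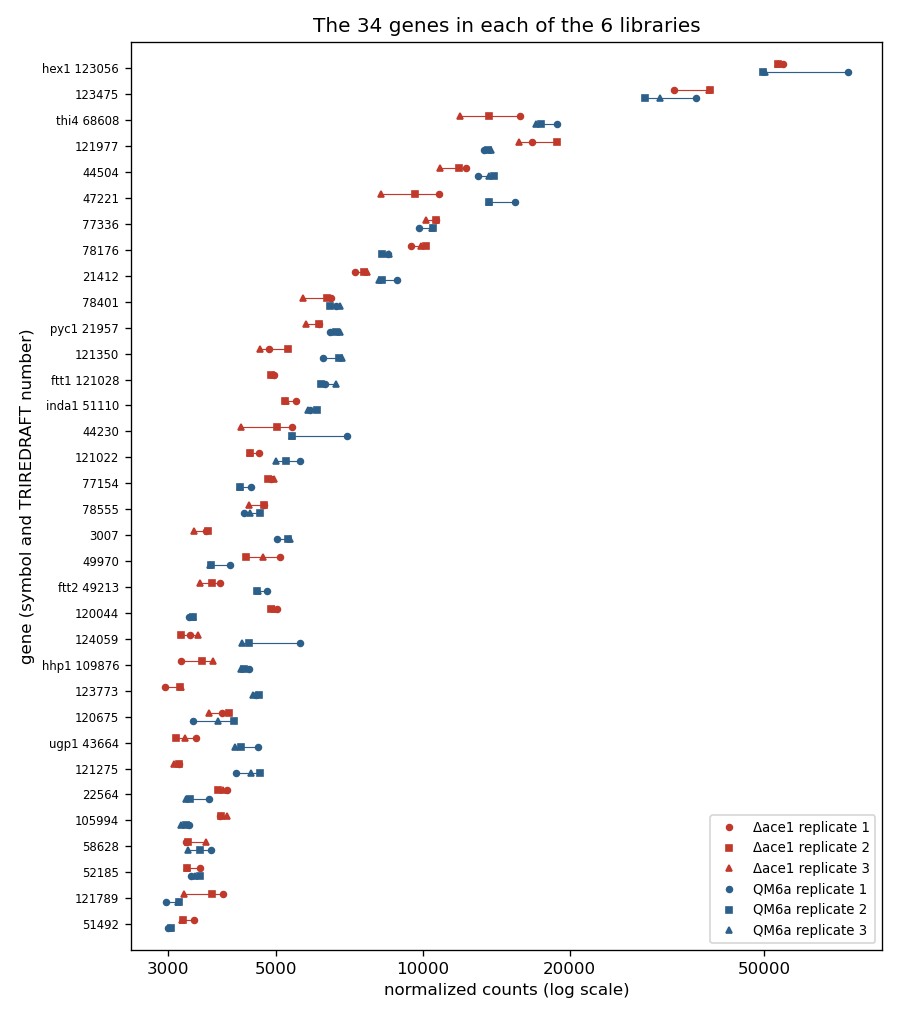
Normalized counts (x axis, log scale) of each of the 34 genes in the 6 libraries, ordered by the mean of the strain means; red marks are Δace1, blue marks QM6a, and the marker shape gives the replicate. The red and blue spans overlap for 9 genes, among them hex1, where 1 QM6a library stands to the right of the rest.

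None of the 5 genes with ratios nearest 1 has a symbol. TRIREDRAFT_52185 had normalized counts of 3491, 3280.4 and 3289 in Δace1 and of 3348, 3496 and 3421 in QM6a, a ratio of 0.980. TRIREDRAFT_77336 was more abundant, with 10638, 10624 and 10153 in Δace1 and 9817, 10518 and 10469 in QM6a, a ratio of 1.02. In both genes the strains overlapped. The others were TRIREDRAFT_120675, at a ratio of 1.02, TRIREDRAFT_58628, at 0.970, and TRIREDRAFT_78555, at 1.04, and the strains overlapped in each. The standard errors of their log2 changes with TMM were 0.062 to 0.076, so differences of this size were not detectable in them. Leaving out 1 library moved the ratio across 1 in 3 of the 34 genes. These were hex1, TRIREDRAFT_77336 (0.998 without QM6a replicate 1) and TRIREDRAFT_120675 (0.973 without QM6a replicate 1 and 0.999 without Δace1 replicate 2).

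The genes at the edges of the window have, by that choice, the ratios farthest from 1. TRIREDRAFT_120044 had normalized counts of 5028, 4893 and 4957 in Δace1 and of 3318, 3389.8 and 3381 in QM6a. It had the highest ratio, 1.47, and a small spread in both strains, with coefficients of variation of 1.37% and 1.17%. TRIREDRAFT_47221 had 10817, 9621 and 8221 in Δace1 and 15426, 13639.8 and 13694 in QM6a, the lowest ratio. TRIREDRAFT_3007 had 3595, 3638 and 3405 in Δace1 and 5017, 5298 and 5343 in QM6a. In each of these genes the strains did not overlap in normalized counts. On other scales the values moved, and with library totals the ratios were 2.11 for TRIREDRAFT_120044, 0.963 for TRIREDRAFT_47221 and 0.973 for TRIREDRAFT_3007. In TPM they were 2.55, 1.17 and 1.18, so the latter pair turned from lower to higher in Δace1.

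The next in level after hex1, besides thi4, were genes without a symbol. TRIREDRAFT_123475 had normalized counts of 32781, 38759 and 38608 in Δace1 and of 36293, 28516 and 30682 in QM6a, overlapping at a ratio of 1.15. TRIREDRAFT_121977 had 16762, 18857 and 15742 in Δace1 and 13319.8, 13612 and 13823 in QM6a, without overlap. TRIREDRAFT_44504 had 12248, 11879 and 10842 in Δace1 and 12996, 13969 and 13678 in QM6a, without overlap and lower in Δace1. TRIREDRAFT_78176, TRIREDRAFT_21412 and TRIREDRAFT_78401, at ratios of 1.17, 0.893 and 0.934, completed the 10 most abundant with those already described. Of all 34 genes, 19 had a mean over both strains below 5000 normalized counts.

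Neighbours in the order of levels were often not separated. Of the 33 pairs of genes next to each other in the order by normalized counts, the libraries overlapped in 25 pairs in Δace1 and 23 in QM6a. Ranks among all genes shifted more than levels did. The members ranked 4 to 195 in Δace1 and 4 to 385 in QM6a, with medians of 103 and 228, as fewer genes reached their level in Δace1. TRIREDRAFT_77336, at nearly equal normalized counts, ranked 42 in Δace1 and 125 in QM6a.

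Per length the order was another one. In TPM the highest members were hex1, at 15420.4 ± 587 in Δace1 and 9563 ± 1986 in QM6a (SD, n = 3 each), then TRIREDRAFT_121977 and TRIREDRAFT_47221 in Δace1. In QM6a TRIREDRAFT_47221, TRIREDRAFT_3007 and TRIREDRAFT_121350 followed hex1. TRIREDRAFT_3007 has a coding length of 252 bases, the shortest of the set, and had 3303 ± 211 TPM in Δace1 and 2808 ± 178 in QM6a. TRIREDRAFT_78176, with 5784 bases the longest, had 8256 to 10168 normalized counts in a library but 301 ± 12.8 and 149 ± 4.46 TPM. TRIREDRAFT_78555 was lowest per length, at 182 ± 12.8 and 102 ± 6.34 TPM, and ranked 901 and 1092 among all genes by TPM in Δace1 and QM6a.

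The spread between replicates, which the rule did not use, was small for most members. The median coefficient of variation of normalized counts was 4.05% in Δace1 and 3.69% in QM6a. For the other 89 genes abundant in both strains it was 6.02% and 4.95%; the difference between the sets was not tested. It was above 10% for 3 members in Δace1 and 4 in QM6a, and for 18 and 22 of the other 89. The largest values were 24.1% for hex1, 15.6% for TRIREDRAFT_44230 and 15.4% for TRIREDRAFT_124059, all in QM6a, and 14.1% for thi4 and 13.6% for TRIREDRAFT_47221 in Δace1. The smallest were 0.566% for TRIREDRAFT_51492 in QM6a and 0.643% for ftt1 in Δace1, both below the counting error of a member with the fewest counts.

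Departures of single libraries by more than 1.2 times were found in few members. In QM6a replicate 1, hex1, TRIREDRAFT_44230, TRIREDRAFT_124059 and TRIREDRAFT_123475 were more than 1.2 times the mean of the other two libraries, at 1.48, 1.30, 1.29 and 1.23 times. In Δace1 replicate 1, thi4 and TRIREDRAFT_47221 were 1.24 and 1.21 times the mean of the other two. In Δace1 replicate 3, thi4, TRIREDRAFT_47221 and TRIREDRAFT_44230 were low, at 0.809, 0.805 and 0.814 times the mean of the other two. QM6a replicates 2 and 3 had hex1 at 0.801 and 0.809 times the mean of their other two, which includes the high replicate 1. The rule gave 34 genes without QM6a replicate 1, of which 33 were members, and 37 without Δace1 replicate 3, which included all 34.

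The members took a larger share of the Δace1 libraries, which follows from the rule and the scaling. Of the estimated counts of a library they held 5.43%, 5.49% and 5.17% for Δace1 and 4.16%, 3.84% and 3.86% for QM6a. The means were 5.37 ± 0.169% and 3.96 ± 0.181% (SD, n = 3 each), without overlap. The 76 abundant genes with ratios below 0.67 held 9.74 ± 0.215% in Δace1 and 24.5 ± 1.202% in QM6a. The 11 with ratios above 1.5 held 10.1 ± 1.41% and 0.828 ± 0.0394%. After the authors' scaling the normalized counts summed to 5088392 to 5199172 in Δace1 and to 7250661 to 7563963 in QM6a. Genes chosen for similar normalized counts must therefore hold a larger share in Δace1, and nothing is read from it. With library totals the median ratio was 1.32 for the members and 1.45 for all tested genes.

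**Figure D3:**
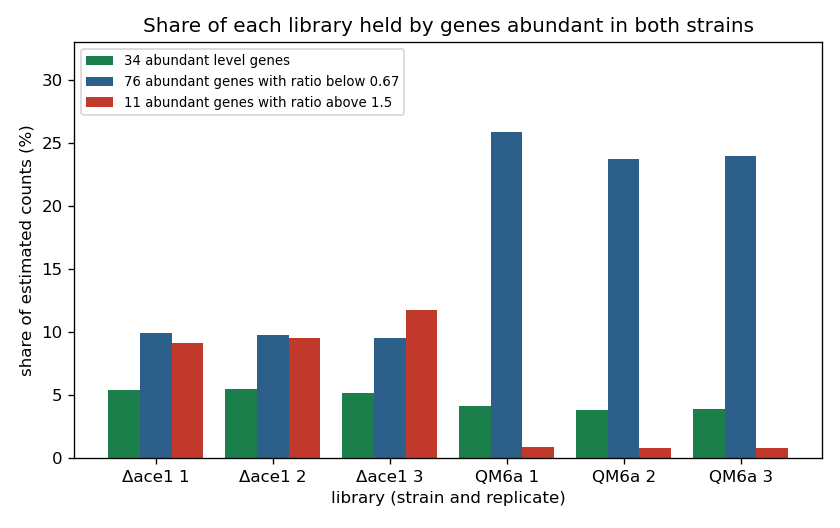
Share of the estimated counts (y axis, percent) held in each library (x axis) by the 34 genes, by the 76 abundant genes with a ratio below 0.67 and by the 11 with a ratio above 1.5; each bar is 1 library. The 34 genes hold 3.84% to 5.49%, with all Δace1 bars above all QM6a bars. All sets were chosen by their ratios, so the larger change of the other sets follows from that choice.

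The ratios depended on the scale. With the authors' normalized counts and with TMM all 34 genes were within 0.67 to 1.5, and with upper quartile scaling 33 were. With library totals 24 were within the window and 10 above it, with a median ratio of 1.32. In TPM 14 were within and 20 above, with a median of 1.59, and all 34 means were higher in Δace1. Of all tested genes, 29.2% had a TPM ratio within the window and 77.3% a higher mean TPM in Δace1. The median ratio over all tested genes moved in the same way, from 1.01 with normalized counts to 1.45 with library totals and 1.75 in TPM. Relative to it the members' median stayed at 0.908 to 0.911 on the 5 scales, since each scale changes the ratios by nearly 1 common factor. From TMM to log2(TPM + 1) the log2 changes of single members moved up by 0.76 to 0.80.

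The 14 genes within the window on all 5 scales were those with low ratios of normalized counts. They included ftt1, ftt2, thi4, ugp1 and hhp1. In contrast hex1, pyc1 and inda1 left the window in TPM, with ratios of 1.61, 1.57 and 1.56. With library totals the ratios nearest 1 were those of TRIREDRAFT_124059 and TRIREDRAFT_121275, with log2 changes of 0.0070 and 0.027, and TRIREDRAFT_52185 had 0.49.

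**Figure D4:**
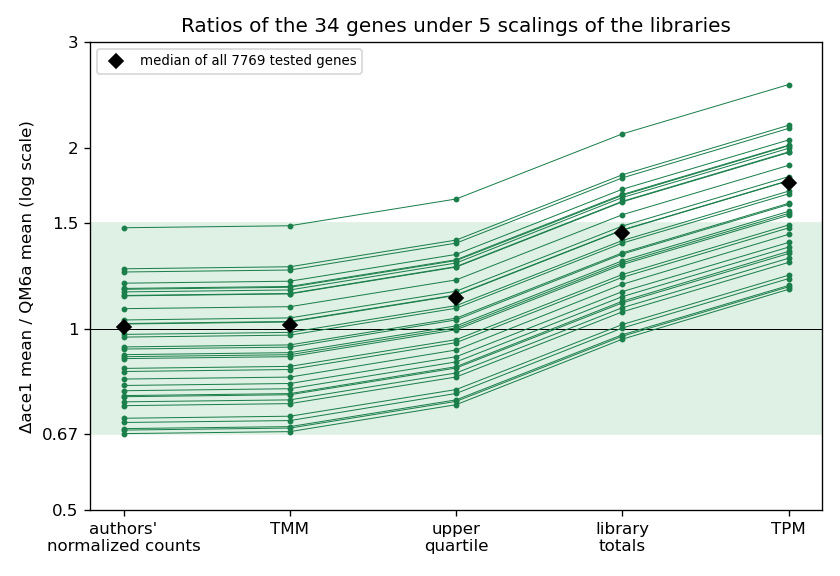
Ratio of the Δace1 mean to the QM6a mean (y axis, log scale) of each of the 34 genes (green lines) on 5 scales (x axis), with the median of all 7769 tested genes as black diamonds and the window of 0.67 to 1.5 shaded. The lines run parallel and move up with library totals and TPM, from a median ratio of 0.917 to 1.59.

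The members differed widely in coding length. The 6 genes with the lowest ratios were TRIREDRAFT_47221, TRIREDRAFT_3007, TRIREDRAFT_123773, TRIREDRAFT_124059, TRIREDRAFT_121275 and TRIREDRAFT_121350. They were singled out after their values were seen. Their coding lengths were 252 to 465 bases, and those of the other 28 members 486 to 5784 bases with a median of 1412. The 13 members with ratios above 1 were all of 615 bases or more, with a median of 1923, against 819 for the 21 below 1. The rule bounded the ratio, so these lengths are a description and nothing is read from them about length and ratio. Of 26 genes abundant in both strains with under 500 bases, 7 were members and 17 had ratios below the window. Of 97 longer ones, 27 were members and 59 were below it.

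**Figure D5:**
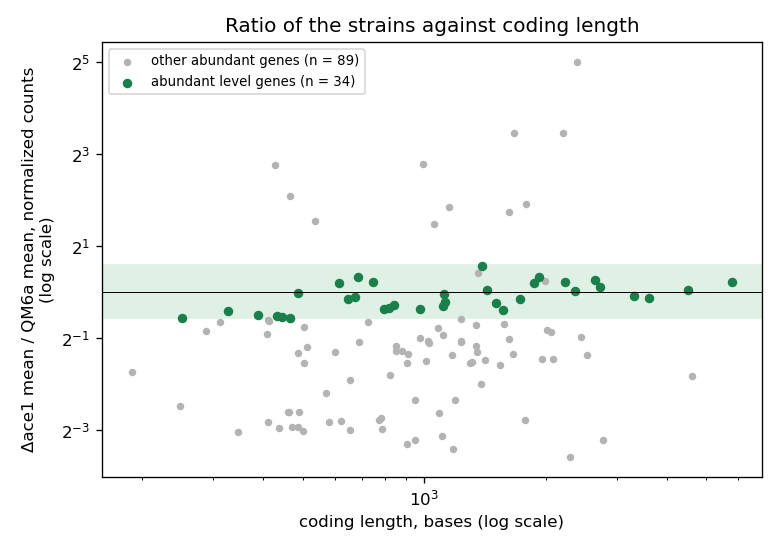
Ratio of the Δace1 mean to the QM6a mean in normalized counts (y axis, log scale) against coding length in bases (x axis, log scale) for the 34 genes (green) and the other 89 genes abundant in both strains (grey); the window of 0.67 to 1.5 is shaded. Of the 7 green points under 500 bases, 6 have the lowest ratios of the set, and TRIREDRAFT_52185, at 486 bases, has a ratio of 0.980. Green points with ratios above 1 are all at 615 bases or more.

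Of the symbols listed as reference genes, 4 were in the table, and none was a member. The other listed symbols matched no gene here, so those genes were not examined. Of the 4, bip1 was also among the identifiers left out by name. The elongation factor gene tef1a had a ratio of 0.250 and the glyceraldehyde-3-phosphate dehydrogenase gene gpd1 one of 0.476, both at high levels, while sar1 and bip1, with ratios of 0.892 and 0.868, did not reach 3000 in both strains. Of 40 ribosomal protein genes listed, 9 were abundant in both strains and 0 were members. Of 5 histone genes 4 were abundant in both strains and had ratios of 0.529 to 0.657, below the window. The ATP synthase genes atp1 and atp2, both abundant, had ratios of 0.392 and 0.334. None of the listed genes of translation, glycolysis or the citrate cycle was a member. In the citrate list acs1 met the values and was left out by name. All lists were matched by symbol, which only 234 of the 9113 genes have. The 26 members without a symbol could not be matched, so whether they belong to these pathways is not known. The listed genes of folding, the proteasome, small GTPases, G proteins and kinases, the cell wall and secretion could not be members, since 0 of them reached 3000 in both strains. In normalized counts, ratios within 0.67 to 1.5 were found for 39.2% of all tested genes, and the lists were not tested against that share. Of the cell wall genes 3 of 19 had such ratios. Among these was chi18-1, with means of only 0.291 in Δace1 and 0.398 in QM6a, too low for its ratio to be read. In the other lists such ratios were found for both folding genes and for 5 of 8 genes of G proteins and kinases. They were also found for 6 of 7 genes of ubiquitin and the proteasome, all but the ubiquitin gene ubi4, at 3.31. The same was true of all 6 of the small GTPases, at 0.724 to 1.23, and for all 3 of secretion, at 1.05 to 1.17.

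Members were not adjacent to each other in the reference gene order. The nearest were TRIREDRAFT_121350 and TRIREDRAFT_47221, 2 places apart, whose ratios of 0.746 and 0.6702 were both low, and TRIREDRAFT_121022 and ftt1, 4 places apart, with ratios of 0.850 and 0.772. No other pair of members lay within 5 places.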

How the data were processed

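Estimated counts and TPM per transcript were deposited for each library, and a normalized signal per gene for the series. The submitters' processing notes name FastQC 0.11.5, kallisto 0.43.1 and DESeq2 1.14.1. The genome build and the transcripts used are not stated there. The deposited normalized signal is a count over 1 factor per library, and undoing that division gave a whole number (within 0.05) for 92.5% to 96.0% of values. The lengths in the deposited tables are coding lengths, since 99.1% are multiples of 3.

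Genes and transcripts were joined by their counts in all 6 libraries, where 99.2% of values were equal after rounding; each of the 34 genes had a single nearest partner. Symbols and gene order were read from RefSeq's gene table (assembly v2.0), which held 9109 of the 9113 genes of the series and gave a symbol for 234.

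The quasi-likelihood test of edgeR 4.0.16 was run on rounded estimated counts in R 4.3.3 (TMM, filterByExpr, robust), two-sided, with Benjamini-Hochberg adjustment over 7769 genes. Of these, 6274 were called. The test was tried on simulated data for 7695 genes with 195 changed, where it recovered 97.1% of 2-fold changes with 10 false calls. How it performs where as many genes differ as the 6274 of 7769 called here was not tested. No change below 2-fold was simulated, and all genes were given the same relative spread. Recovery of differences as small as those of the members was thus not tested. Alternatives were DESeq2 1.42.0, limma 3.58.1, other scalings and filters, a replicate block and leaving out libraries; the test on recovered whole reads, the counts within the window on other scales and the rule with TPM ratios were added after seeing the data. Members, lists and named genes (members with a symbol, the most and least abundant, level, variable and edge genes) were chosen with earlier results of these data known. Planned comparisons of promoter and protein sequence were not made. Counting errors cover counting only.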

Additional observations from a re-analysis of the deposited data

How the results depend on the processing

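The membership depends on the bounds and on the scale. The rule gave 70 genes with a floor of 2000, 12 with a floor of 5000 and 22 with a window from 0.8 to its inverse. With a window of 0.5 to 2 it gave 50, with TMM 35, with upper quartile scaling 41 (31 shared with the 34), with library totals 48 (22 shared) and with TPM ratios 47 (14 shared). Without single libraries it gave 34 to 37. Within the window were 14 of the 34 genes in TPM. The median log2 change of the members, -0.11 with TMM, was 0.054 with upper quartile scaling, 0.40 with library totals, 0.67 on log2(TPM + 1) and 0.67 on log2(TPM + 0.1), and -0.13 to -0.089 without single libraries. In Δace1 the members held 5.93% of the TPM against 5.37% of the counts.

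Of the 13 members called lower with TMM, all were higher on log2(TPM + 1) and 10 with library totals. The respective log2 changes were 0.48 and 0.21 for hhp1, 0.56 and 0.29 for TRIREDRAFT_121022, 0.42 and 0.15 for ftt1, 0.45 and 0.18 for ftt2, 0.42 and 0.16 for thi4, 0.39 and 0.12 for ugp1, 0.57 and 0.30 for TRIREDRAFT_44504, 0.30 and 0.027 for TRIREDRAFT_121275, 0.37 and 0.097 for TRIREDRAFT_121350, and 0.29 and 0.0070 for TRIREDRAFT_124059. On log2(TPM + 1) they were 0.24 for TRIREDRAFT_123773, 0.23 for TRIREDRAFT_3007 and 0.21 for TRIREDRAFT_47221. The share of calls over all tested genes that were higher was 51.0% with TMM, 58.0% with upper quartile scaling, 71.8% with library totals and 80.5% on log2(TPM + 1).

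Without single libraries 20 to 24 of the 34 genes and 6039 to 6265 of all tested genes were called. The call of TRIREDRAFT_123475 was lost without Δace1 replicate 2 or 3 or QM6a replicate 2 or 3, that of TRIREDRAFT_22564 without QM6a replicate 2 or 3, and that of TRIREDRAFT_44504 without Δace1 replicate 3 or QM6a replicate 2 or 3. Calls were gained for TRIREDRAFT_44230 without Δace1 replicate 1 or QM6a replicate 2 or 3, for inda1 without Δace1 replicate 1 and for TRIREDRAFT_51492 without Δace1 replicate 3. The test on recovered whole reads called 22 of the 34 and 6274 of all. Same-numbered replicates did not deviate together (correlations of -0.011, 0.032 and -0.047). No pairing by number was thus seen, but this cannot show that the samples were unpaired. With a replicate block 22 of the 34 genes (8 higher and 14 lower) and 6223 of all tested genes were called. Under the block TRIREDRAFT_123475 lost its call (edgeR, adjusted p 0.0794) and TRIREDRAFT_44230 gained one (0.0105). With 3 libraries per strain, differences of about 0.1 on the log2 scale were near the standard errors of 0.060 to 0.14.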
